A study of Mus musculus with 1183 samples.

Results

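Spp1, Gpnmb, Fn1 and Tgfbi are 4 of the 18072 genes counted in 1183 single cells of the mouse lung, and they were picked out by symbol. They were followed across the cell subtypes given in the labels, above all the macrophage classes Mac II to Mac V, in each animal and in each cell. The cells came from the distal lung of 1 female mouse (598 cells) and 1 male mouse (585 cells) on postnatal day 7. Both mice carry the treatment label hyperoxia, meaning that the pups breathed air with more oxygen than normal, a standard way to harm growing alveoli. Cells were sorted into plates, all but 10 of them on plates named for CD45, which marks cells of the blood lineage, and each was sequenced on its own after cutting with the Tn5 transposase. The labels give no strain or genotype, and samples in normal oxygen were not analysed here, so the values describe levels under hyperoxia and no effect of it.

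All 4 genes are known from macrophages of scarred or injured tissue. Spp1 encodes osteopontin, a secreted glycoprotein that binds integrins and CD44. Fn1 encodes fibronectin, the matrix glycoprotein that cells grip through integrins and on which collagen is laid down. Tgfbi encodes a secreted matrix protein named for its induction by transforming growth factor beta (TGF-beta), which binds collagens and integrins. Gpnmb encodes a membrane glycoprotein of lysosomes and melanosomes whose outer part can be shed, and it is a target of the MiT family of transcription factors (Mitf, Tfeb, Tfe3 and Tfec). In human fibrotic lung, macrophages with high SPP1 and GPNMB are a known class, and fibronectin made by macrophages is one of several sources of that protein in healing tissue.

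The genes lie on separate chromosomes of the mouse (build GRCm38, GENCODE M21 annotation). Spp1 is at chr5:104435118-104441050 on the plus strand, Gpnmb at chr6:49036546-49070929 on the plus strand, Fn1 at chr1:71585520-71653200 on the minus strand and Tgfbi at chr13:56609523-56639562 on the plus strand. All 4 are protein-coding. The antisense gene Apol7d, which is also in the count table, overlaps an exon of Fn1, and the unconfirmed gene Gm42793 overlaps Spp1. Whether counting used the strand is not given in the sources used here, so reads of such overlaps cannot be told apart.

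RefSeq start regions (GRCm38.p6, 250 bases before to 50 after a start) were at hand for 3 of the 4 genes, Spp1, Gpnmb and Tgfbi. Those of Spp1 and Gpnmb are shown because these genes were high together in Mac III and parted in Mac II. They were searched on both strands for the AP-1 site TGANTCA, the MiT family E-box CACGTG, the M-box core CATGTG, the Runx site ACCACA and the PU.1 core GAGGAAGT, none of which overlapped another here, and the capitals mark the matches.
Spp1, chr5:104434861-104435160, plus strand: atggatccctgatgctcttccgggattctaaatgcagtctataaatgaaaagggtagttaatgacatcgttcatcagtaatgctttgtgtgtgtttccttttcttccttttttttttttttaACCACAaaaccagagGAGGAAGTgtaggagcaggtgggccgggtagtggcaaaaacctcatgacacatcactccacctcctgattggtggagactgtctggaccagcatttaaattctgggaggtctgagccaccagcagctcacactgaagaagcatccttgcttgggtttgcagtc
Gpnmb, chr6:49036268-49036567, plus strand: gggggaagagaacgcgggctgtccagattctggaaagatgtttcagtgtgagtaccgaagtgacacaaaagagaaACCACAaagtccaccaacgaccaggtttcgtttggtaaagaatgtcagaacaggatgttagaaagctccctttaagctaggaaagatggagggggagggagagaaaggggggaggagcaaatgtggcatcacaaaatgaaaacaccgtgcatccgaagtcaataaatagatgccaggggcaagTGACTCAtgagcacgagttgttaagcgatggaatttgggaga

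With the start base counted as 0, the Runx letters began at -128 in Spp1 and at -175 in Gpnmb, the PU.1 core at -113 in Spp1 and the AP-1 letters at 8 in Gpnmb. Of 32851 start regions of this length in the table, 16.8% held the Runx letters, 3.2% the PU.1 core, 7.81% the AP-1 letters, 7.15% the E-box and 14.2% the M-box core. The region of Tgfbi (chr13:56609336-56609635) and that of a second Spp1 start (chr5:104435942-104436241) held no match. A match describes letters in these windows and nothing about binding.

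Most reads of the 4 genes came from macrophage classes, a share that depends on cell numbers as well as levels. Tgfbi was also present in DC I, DC II and neutrophils. Mac II to Mac V, with 690 of the 1183 cells, held 99.4% of all Spp1 reads, 99.8% of the Gpnmb reads, 97.2% of the Fn1 reads and 87.8% of the Tgfbi reads. Depth per cell ran from 16753 to 7560179 reads with a median of 1100966. Levels are given as CPM, the reads of a gene in the summed cells of a subtype and animal divided by all their reads and multiplied by 1000000. Mac III was the largest class, with 30.4% of the cells of the female and 35.6% of those of the male. Intervals on single values cover counting error only, and the replicate is the animal (n = 2). The subtypes were probably named from the same reads, so a difference between them describes the labelled classes.

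The labelled macrophage classes carried different markers. Mac III had the alveolar macrophage genes Marco (988 CPM in the female, 1129 in the male) and Car4 (1236 and 982), with C1qa at under 0.01 CPM in both animals. Other alveolar macrophage genes of the list were not highest there: Siglecf (111.1 and 67.02 CPM) and Ear2 (1097 and 1028) were higher in Mac II (146.03 and 85.98, 2526 and 2815), and Mrc1 (916 and 969) in Mac IV (1361 and 1628). Mac IV had the complement gene C1qa at 3916 and 5218 CPM, with Marco at 908 and 335.7. Mac V had the monocyte genes Ly6c2 (991 and 1666) and Ccr2 (572 and 893). Mac II had Ccr2 (631 and 399 CPM) and C1qa (204.2 and 122.4) with little or no Ly6c2 (0 and 0.0377). Fibroblast markers were low throughout: the 6 listed genes summed to 0.729 to 4.26 CPM in Mac II, Mac III and Mac V and to 47.9 and 41.2 in Mac IV, where Col1a1 stood at 19.6 and 18.7.

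**Figure D1:**
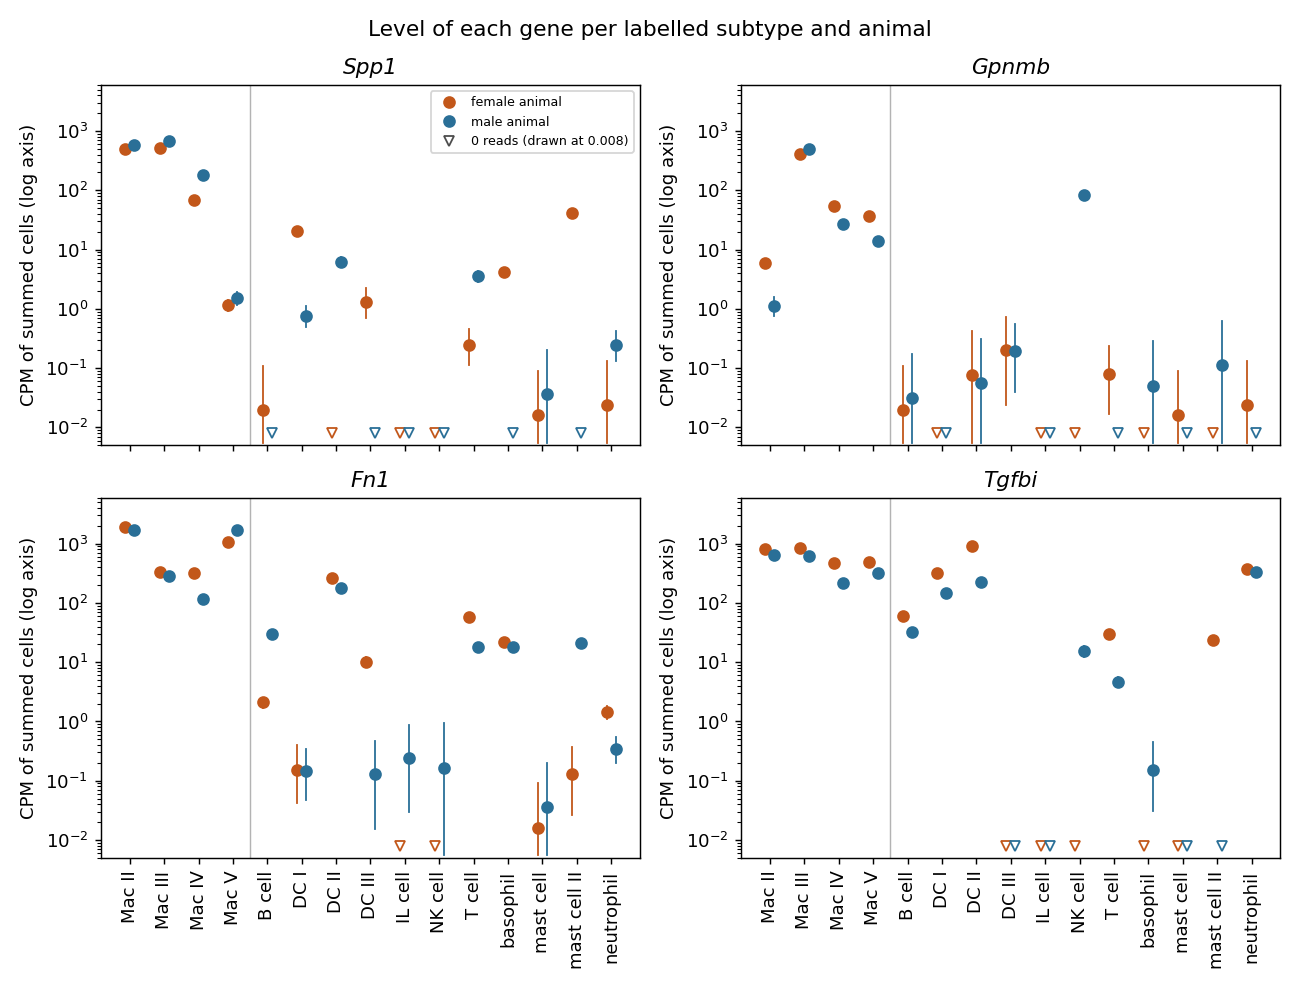
Level of each gene (CPM of summed cells, log axis) in 15 labelled subtypes, with a point for each animal and a line for the exact 95% Poisson interval, which covers counting error only. Spp1 and Gpnmb are high in few macrophage classes, whereas Tgfbi is also present in DC I, DC II and neutrophils.

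Spp1 was a gene of Mac II and Mac III. In Mac II its level was 499 CPM in the female and 580 in the male and in Mac III 513 and 674, and these ranges overlapped. Mac IV followed at 69.3 and 182.7 CPM, below all Mac II and Mac III values. In Mac V it was nearly missing, at 1.147 and 1.499 CPM, and all of those reads came from 1 cell in each animal. Outside the macrophages the highest value was 41.5 CPM in the mast cell II cells of the female, with 0 reads in those of the male, and the next was 20.7 CPM in DC I of the female against 0.769 in the male. IL cells and NK cells had no read in either animal.

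Gpnmb was a gene of Mac III. Its level there was 413 CPM in the female and 497 in the male. Mac IV had 55.1 and 27.1 CPM, Mac V 36.5 and 14.1, and these overlapped. Mac II, the class that matched Mac III in Spp1, had 5.94 and 1.13 CPM of Gpnmb, of which 98.9% and 100% came from 1 cell in each animal. Without that cell Mac II stood at 0.0729 and 0 CPM. The NK cells of the male reached 82.7 CPM, with 99.8% of the reads from 1 cell of 7 and 0 reads in those of the female, so this value describes that cell. In the other subtypes Gpnmb was under 0.2 CPM.

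Fn1 was highest in Mac II and Mac V. It stood at 1905 and 1709 CPM in Mac II and at 1085 and 1686 in Mac V, followed by Mac III at 327.3 and 285.6. Mac IV had 318.4 CPM in the female and 118.3 in the male, and DC II had 268.1 and 177.2, so these subtypes overlapped. The Mac IV values leaned on single cells: 30.9% of the Fn1 reads in the female and 67.2% in the male came from 1 cell, and without it the levels were 231.7 and 39.6 CPM. In DC II 31.1% of the reads of the female and 93.1% of those of the male came from 1 cell. T cells reached 56.8 and 18.2 CPM, of which 71.8% and 99.8% came from 1 cell of each animal. No other of the 15 subtypes with at least 5 cells per animal passed 30 CPM in either animal.

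Tgfbi had the broadest pattern. Its levels were 814 and 646 CPM in Mac II, 832 and 621 in Mac III, 474 and 214.6 in Mac IV and 499 and 317.3 in Mac V. DC II had 916 and 228.9 CPM, neutrophils 376.8 and 328.5 and DC I 320.3 and 145.8. Within these 7 subtypes each overlapped the next in the order of means. DC I, the last of them, did not overlap B cells, which had 60.05 and 32.7 CPM. DC III, IL cells and mast cells had no Tgfbi read in either animal. The male was lower than the female in all 7 subtypes, by ratios of 0.25 in DC II to 0.872 in neutrophils. In DC II 61.4% of the reads of the female came from 1 of 11 cells. Animal and sex cannot be told apart with 1 mouse of each.

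Per kilobase of exon the order within a class could be compared between genes. The length was that of all GENCODE M21 exons of a gene joined. The annotation behind the counts is not clear, so close orders may depend on that length. In Mac II Spp1 led with 302.9 and 351.8 RPKM (CPM per kilobase), followed by Tgfbi with 215.8 and 171.3, Fn1 with 163.02 and 146.2 and Gpnmb with 0.912 and 0.174. In Mac III Spp1 had 311.3 and 409 RPKM, Tgfbi 220.6 and 164.6, Gpnmb 63.4 and 76.3 and Fn1 28.01 and 24.4. The order was the same in both animals in Mac II and in Mac III. In Mac IV the female had Tgfbi (125.8 RPKM) above Spp1 (42.04) and the male Spp1 (110.85) above Tgfbi (56.9). In Mac V the leading gene was Tgfbi in the female (132.4 against 92.8 for Fn1) and Fn1 in the male (144.3 against 84.1).

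Differences between Mac II, Mac III, Mac IV and Mac V were then tested with the quasi-likelihood test of edgeR on the 8 summed libraries, over all 14400 genes that passed the count filter, with Benjamini-Hochberg adjustment per pair. All 4 genes passed the filter. Of 24 tests (4 genes in 6 pairs) 12 had an adjusted p under 0.05: 5 for Spp1, 4 for Fn1, 3 for Gpnmb and 0 for Tgfbi. The animals of the paired classes did not overlap in 19 of the 24, which is common over all genes with 2 animals a class. For Mac II and Mac III 2 of the 4 genes did not overlap against 48.7% of all genes, for Mac II and Mac IV 4 against 50.5% and for Mac II and Mac V 4 against 42.3%. For Mac III and Mac IV it was 3 against 60.8%, for Mac III and Mac V 4 against 60.1% and for Mac IV and Mac V 2 against 54.2%. As background to the calls, 0.806% of all genes were called in favour of Mac II against Mac III and 0.326% in favour of Mac III. For Mac II against Mac IV the shares were 2.24% for Mac II and 1.7% for Mac IV, and for Mac II against Mac V 2.41% and 1.56%. For Mac III against Mac IV they were 2.45% and 2.78%, for Mac III against Mac V 3.64% and 3.9%, and for Mac IV against Mac V 3.74% and 3.33%. The genes were chosen with results of these data known, so their larger share of calls is a description.

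The calls depended on how the spread was estimated. With all 15 subtypes in the fit, where the common biological coefficient of variation was 1.15 in place of 0.848, 0 of the 24 tests passed, with adjusted p between 0.3 and 1 for the 12 calls. DESeq2 kept all 12 calls and added 2. No fold change of the 4 genes moved by more than 0.06 on the log2 scale in the first of these fits or 0.09 in the second.

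**Figure D2:**
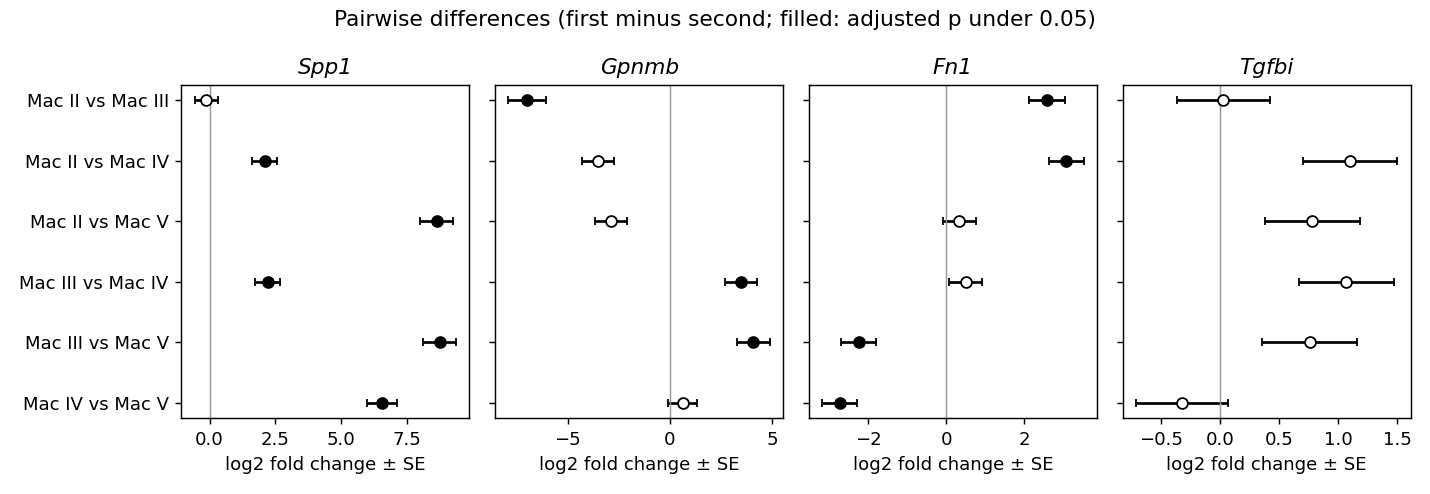
Log2 fold changes of each gene (first class minus second, x axis, a scale of its own per panel) with their standard errors for the 6 pairs of macrophage classes, from edgeR on 2 animals per class. Filled points had an adjusted p under 0.05: 5 for Spp1, 3 for Gpnmb, 4 for Fn1 and 0 for Tgfbi.

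Spp1 separated Mac V from the rest most firmly. Over Mac V, Mac II was higher by 8.63 ± 0.63 on the log2 scale (SE, adjusted p 0.00044), Mac III by 8.75 ± 0.63 (0.000265) and Mac IV by 6.54 ± 0.57 (0.000991). These 3 calls held whichever library was left out, with adjusted p of at most 0.0093. Mac II exceeded Mac IV by 2.09 ± 0.46 (adjusted p 0.0488) and Mac III exceeded it by 2.21 ± 0.47 (0.0339). Both of these calls were lost with the shared sequencing run alone (0.364 and 0.348) and with cells weighted equally (0.152 and 0.118). Leaving out a library ended the Mac II call without Mac II of the female (0.0949) or male (0.137) or Mac IV of the female (0.0984), and the Mac III call without Mac III of the female (0.0815) or male (0.154) or Mac IV of the female (0.0646). Mac II and Mac III differed by -0.12 ± 0.45 (adjusted p 0.953).

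Spp1 levels were uneven between plates in Mac II and Mac IV. Mac II of the male had 222.4 and 1022 CPM on its CD45 plates, 43.9% of its reads came from 1 cell, and without that cell its level was 352.3 CPM. Mac II of the female had 739 and 418.6 CPM on its plates. Mac IV stood at 27.1 and 108.2 CPM on the first and second CD45 plate of the female and 46.4 and 264.8 CPM on those of the male. On the second plate of the male 1 cell at 7138 CPM gave 56.8% of the male's Mac IV reads, and without it the level of the male was 80.2 CPM. That cell had C1qa at 11813 CPM and no Marco read.

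Gpnmb parted Mac II from Mac III although their Spp1 levels overlapped. Mac II minus Mac III gave -6.99 ± 0.93 on the log2 scale (adjusted p 0.0142), and in each animal every plate of Mac III, from 393 to 599 CPM, lay above every plate of Mac II, from 0 to 23.3 CPM. Mac III also exceeded Mac IV by 3.47 ± 0.79 (0.0446) and Mac V by 4.10 ± 0.81 (0.0202). Within the shared sequencing run none of these 3 calls passed (0.068, 0.148 and 0.0642). The Mac IV call was lost without Mac III of the female (0.121) or male (0.165) and without Mac IV of the female (0.142) or male (0.218). The Mac V call was lost without Mac III of the female (0.0545) or male (0.0778) and without Mac V of the male (0.105), and the Mac II call without Mac III of the male (0.0534).

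Gpnmb in Mac IV and Mac V was carried by few cells. Its difference of Mac II from Mac IV (-3.52 ± 0.80, adjusted p 0.0514) and from Mac V (-2.89 ± 0.78, 0.0859) did not pass, and with the animal as a replicate block, which pairs libraries of the same mouse, both did (0.0279 and 0.0456). In Mac V 74.9% and 65.5% of the reads came from 1 cell of each animal, and without it the level was 9.46 and 4.96 CPM. Mac IV and Mac V differed by 0.63 ± 0.72 (adjusted p 0.635).

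Fn1 was called higher in Mac II and Mac V than in the other classes. Mac II exceeded Mac III by 2.58 ± 0.45 on the log2 scale (adjusted p 0.0383) and Mac IV by 3.07 ± 0.45 (0.0129). Mac V exceeded Mac III by 2.25 ± 0.44, coded as -2.25 in the direction Mac III minus Mac V (0.0193), and Mac IV by 2.74 ± 0.45, coded as -2.74 (0.0117). The calls against Mac IV held whichever library was left out, with adjusted p of at most 0.0475 for Mac II and 0.0447 for Mac V.

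The Fn1 calls against Mac III were less firm. That of Mac II over Mac III was lost without Mac II of the female (0.113) or male (0.114) and without Mac III of the female (0.214) or male (0.307), and with cells weighted equally (0.0654). That of Mac V over Mac III was lost without Mac III of the female (0.104) or male (0.144) and without Mac V of the male (0.0886). Fn1 did not differ beyond the spread between Mac II and Mac V (0.33 ± 0.42, adjusted p 0.722) or between Mac III and Mac IV (0.49 ± 0.42, 0.607), where the shared run alone gave 0.0499. In Mac IV Fn1 was 618 CPM on the first plate of the female, the only one of the 4 CD45 plates from another run, and 41.7, 12.3 and 182.03 CPM on the rest. The Mac IV cell with most Fn1 reads had Marco at 11133 CPM in the female and 201.99 in the male, beside C1qa at 2152 and 4036. No doublet caller was run, and whether such wells held 1 cell was not tested.

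Tgfbi passed in 0 of 6 pairs with edgeR and 0 with DESeq2, and 2 had an unadjusted p under 0.05. Its largest differences were those of Mac II from Mac IV (1.10 ± 0.40, adjusted p 0.157) and of Mac III from Mac IV (1.07 ± 0.40, 0.17), and both animals had the lower value in Mac IV. The second passed with the animal as a replicate block (0.0449) and both passed with cells weighted equally (0.0409 and 0.0328). Within the shared run Mac II passed against Mac IV (0.0452) and Mac V (0.0464) and Mac III against Mac V (0.0416). The Tgfbi level of Mac V in the female was 785 CPM on the plate of the other run and 228.4 on the plate of the shared run, against 314.6 and 319.04 on the plates of the male.

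Levels were next followed into single cells. A gene was called detected in a cell with at least 5 reads after the cell was thinned at random to 100000 reads, so that cells of unequal depth could be compared, which left out 2 of the macrophages. Spp1 was detected in 17 of 27 Mac II cells of the female (62.96%, exact 95% interval 42.4% to 80.6%) and in 14 of 20 of the male (70%, 45.7% to 88.1%). The Mac III shares were 56.9% (49.4% to 64.2%) and 64.9% (58% to 71.4%) and the Mac IV shares 17.5% and 17.7%, while Mac V had Spp1 in 1 of 66 cells and 0 of 44. B and T cells, counted as 1 class in which Spp1 gave 0 of 65 and 1 of 45 cells, served as background. The upper cells were far above the median: in Mac III of the male the median cell had 201.9 CPM and the highest 15403.

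Gpnmb was detected in 69.6% (62.4% to 76.2%) and 75% (68.5% to 80.7%) of Mac III cells. Elsewhere it was rare, in 1 of 27 and 1 of 20 Mac II cells, 9 of 63 and 4 of 79 Mac IV cells and 2 of 66 and 2 of 44 Mac V cells, with 0 of 65 and 0 of 45 B and T cells. Of the NK cells it was detected in 0 of 5 and 1 of 6. The median Mac III cell had 241.1 CPM in the female and 251.6 in the male.

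Fn1 was detected in 27 of 27 and 19 of 20 Mac II cells. Its shares were 61.9% and 72.6% in Mac III, 25.4% and 13.9% in Mac IV and 48.5% and 59.1% in Mac V, with 3 of 65 and 3 of 45 B and T cells. The median Mac II cell had 1682 and 1438 CPM. Mac V had a similar summed level from fewer cells: its median cell had 37.3 CPM in the female and 673 in the male, and 42.4% and 31.1% of its cells had no Fn1 read at all.

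Tgfbi was detected in most cells of all 4 classes, at 92.6% and 90% in Mac II, 95.03% and 91.8% in Mac III, 66.7% and 68.4% in Mac IV and 66.7% and 61.4% in Mac V. B and T cells gave 4 of 65 and 3 of 45 cells. The median Mac III cell had 677 and 510 CPM and the median Mac IV cell 193.7 and 116.2.

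**Figure D3:**
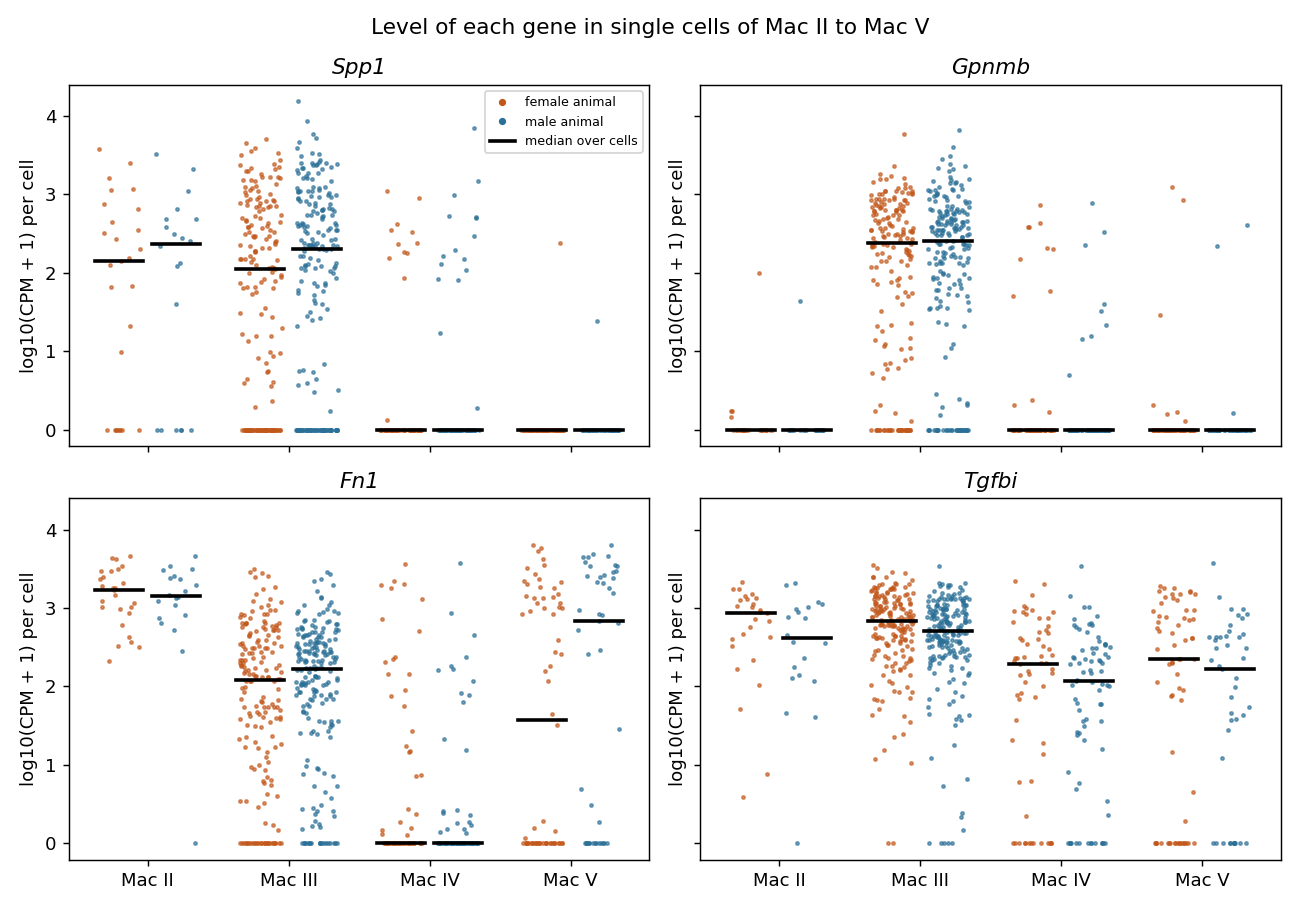
Level of each gene in single cells of Mac II to Mac V, as log10(CPM + 1) on the y axis, with a dot per cell, colours for the animals and a bar at the median. Fn1 in Mac V runs from many cells at 0 to cells above 1000 CPM, while Tgfbi is detected in most cells of each class.

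Cells with all 4 genes detected were found chiefly in Mac III. They made up 23.8% of its cells in the female (43 cells) and 33.2% in the male (69 cells), the commonest combination in both animals. Mac II had 1 of 27 and 1 of 20 such cells, Mac IV 0 of 63 and 1 of 79 and Mac V 0 of 66 and 0 of 44. The commonest combination of Mac II was Spp1, Fn1 and Tgfbi without Gpnmb, in 14 of 27 and 10 of 20 cells, followed by Fn1 and Tgfbi in 10 and 6. Mac IV most often had 1 of the 4 genes (46.03% and 56.96% of cells), and 19.05% and 21.5% had none. On average a cell held 2.83 and 3.04 of the genes in Mac III, 2.59 and 2.60 in Mac II, 1.24 and 1.05 in Mac IV and 1.20 and 1.25 in Mac V.

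**Figure D4:**
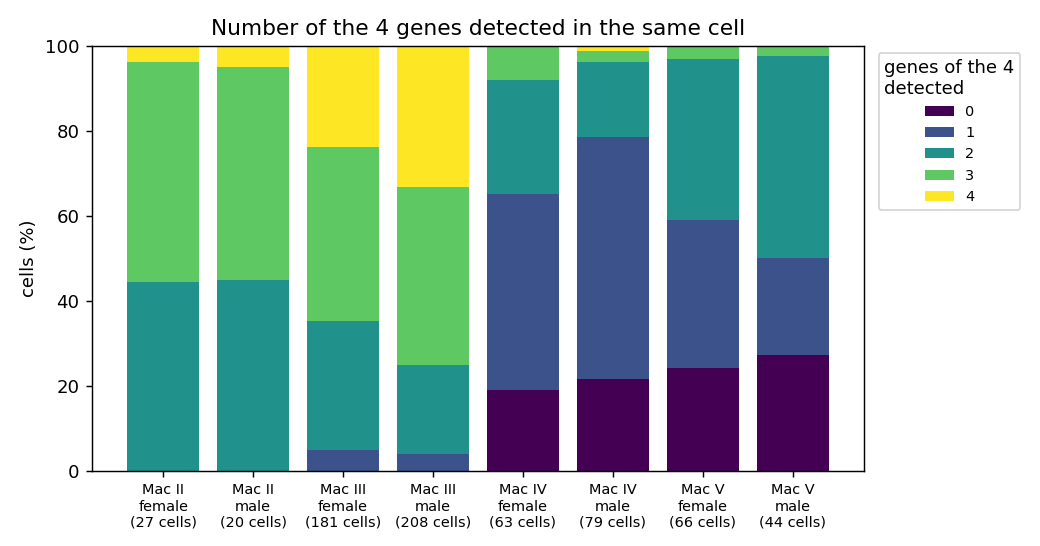
Share of cells (y axis, %) with 0 to 4 of the genes detected at 100000 reads per cell, in each macrophage class and animal. All 4 genes in the same cell make up 23.8% and 33.2% of Mac III and at most 5% of the other classes.

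Within Mac III, pairs of the genes met in the same cell about as often as their separate shares would give. The observed number over that product ran from 0.872 to 1.11 over the 6 pairs and both animals. The lowest were Gpnmb with Fn1, found together at 0.872 and 0.936 times the product. Their levels over cells had Spearman rho of -0.31 and -0.28. Fn1 and Tgfbi went the other way, with rho of 0.24 and 0.39, and Spp1 and Tgfbi had 0.27 and 0.21. These coefficients are over cells of 1 library pool per animal and share each cell's total, and they carry no test.

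In Mac II, whose cells nearly all had Fn1, Spp1 and Tgfbi levels ran in opposite directions, with rho of -0.50 over 27 cells and -0.38 over 20. In Mac III the same genes had rho above 0 in both animals. Spp1 and Fn1 had rho of 0.12 and 0.17 in Mac II. In Mac V Fn1 and Tgfbi were detected together in 27 of 66 and 21 of 44 cells, 1.27 and 1.32 times the product of their shares, with rho of 0.31 and 0.54.

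The Mac V cells were divided by the monocyte markers Ly6c2, a surface gene of classical monocytes, and Ace, the angiotensin-converting enzyme found on patrolling monocytes of the mouse. Fn1 was detected in 22 of 23 and 22 of 22 cells with Ly6c2 and without Ace, and in 5 of 34 and 1 of 14 cells with Ace and without Ly6c2. The exact intervals did not overlap in either animal (78.1% to 99.9% against 4.95% to 31.1% in the female, 84.6% to 100% against 0.181% to 33.9% in the male). Each interval is over the cells of 1 mouse and holds no spread between animals. The summed levels were 2093 and 2566 CPM with Ly6c2 alone and 97.7 and 43.8 with Ace alone. Cells with both markers had Fn1 in 5 of 5 and 2 of 2.

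Tgfbi followed the same division less fully. It was detected in 20 of 23 and 19 of 22 cells with Ly6c2 alone, and in 18 of 34 and 3 of 14 cells with Ace alone. Its summed levels were 575 and 328.5 CPM against 353.1 and 177.9. The cells with Ly6c2 also held all 4 Mac V cells in which Gpnmb was detected, 2 in each animal, and the Mac V cell with most Gpnmb reads had Fn1 at 2190 CPM in the female and 2556 in the male.

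**Figure D5:**
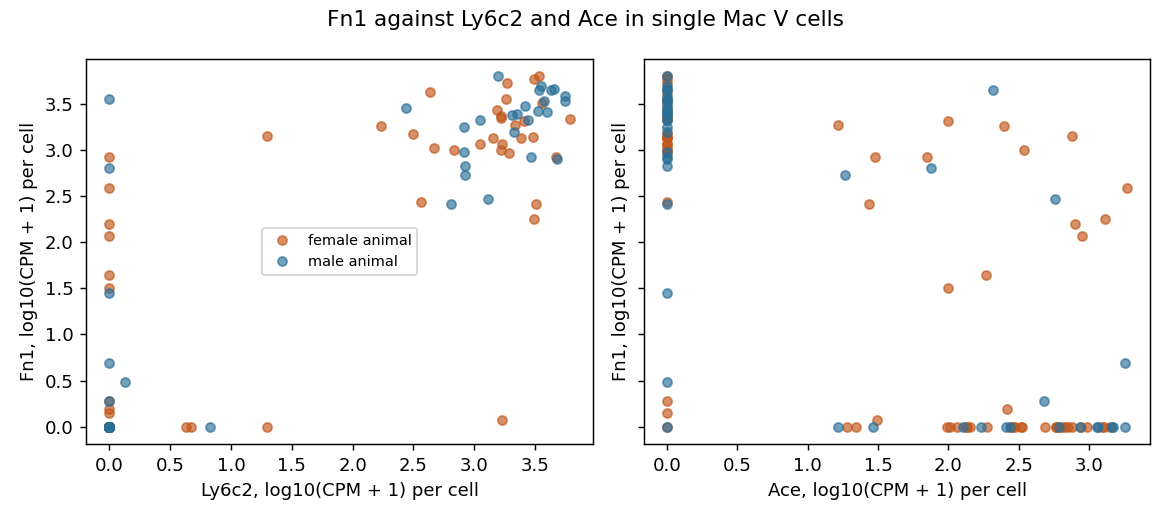
Fn1 (y axis) against Ly6c2 and Ace (x axes) in single Mac V cells, all as log10(CPM + 1), coloured by animal. Cells with Ly6c2 have Fn1 with few exceptions, and most cells with Ace have none.

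Other listed genes ran with Fn1 across Mac V cells. Among those with rho of at least 0.4 in size and of the same sign in both animals, Ly6c2 (0.80 and 0.81), Lyz2 (0.71 and 0.76), Ccr2 (0.70 and 0.73) and F13a1 (0.66 and 0.73), the gene of a clotting factor subunit that crosslinks fibrin and fibronectin, rose with it. Thbs1, the gene of thrombospondin-1, which can release active TGF-beta, had 0.63 and 0.63. On the opposite side stood Ace (-0.63 and -0.71), Treml4 (-0.62 and -0.71), Cd9 (-0.63 and -0.62) and Tgm2 (-0.61 and -0.48). Only genes with at least 50 CPM in at least 20% of the cells of both animals entered. That left Spp1 and Fn1 in Mac II and Mac III, Gpnmb in Mac III and Tgfbi in all 4 classes as the other combinations computed, and in these no listed gene reached that size with the same sign in both animals.

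Classes of cells within Mac III and Mac IV were compared as well. In Mac III, cycling cells (at least 5 reads of at least 4 of 10 cell cycle genes) had Spp1 in 22 of 24 and 22 of 27, against 51.6% and 62.4% of the rest. The exact intervals did not overlap in the female (73% to 98.97% against 43.5% to 59.6%) and did in the male (61.9% to 93.7% against 54.9% to 69.5%). Gpnmb differed less, with 16 of 24 and 21 of 27 cycling cells against 70.1% and 74.6% of the rest. Fn1 was detected in 18 of 24 and 20 of 27 cycling cells against 59.9% and 72.4%, with intervals that overlapped in both animals. In Mac IV, cells with the MHC class II gene H2-Ab1 had Spp1 in 5 of 11 and 2 of 6, against 6 of 52 and 12 of 73 of the cells without it, and these intervals also overlapped in both animals. Summed Spp1 levels went opposite ways: 245.7 CPM with H2-Ab1 against 26.4 without it in the female, and 82.01 against 191.1 in the male.

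The genes whose levels ran closest to each of the 4 were named over the 30 summed libraries (15 subtypes in 2 animals), as Pearson's r of log2(CPM + 1) among 8315 genes. For Spp1 they were Slc22a17 (0.893), Mmp19 (0.891) and AU022793 (0.879). For Gpnmb they were the scavenger receptors Marco (0.833) and Msr1 (0.806) and the kinase gene Cdc42bpb (0.754). For Fn1 they were the Fc receptor gene Fcgr1 (0.872), the integrin gene Itgb5 (0.856) and Tlr8 (0.828), and for Tgfbi Aldh3b1 (0.944), Lrp1 (0.932) and Lyz2 (0.930). The 4 genes were less like each other, with r from 0.493 between Gpnmb and Tgfbi to 0.606 between Fn1 and Tgfbi. Libraries of the same animal share plates and runs.

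Genes of lysosomes and lipid handling that are reported with Gpnmb and Spp1 in macrophages were counted next. Of 20 tested, 10 passed with the higher level in Mac III and 1 with the higher level in Mac V, with a median log2 difference of 2.77 against 0.11 over all genes. For Mac II against Mac V 8 were higher and 0 lower, and for Mac IV against Mac V 9 and 0. Atp6v0d2, the gene of a proton pump subunit of lysosomes, stood at 1554 and 1321 CPM in Mac III, 131.04 and 69.2 in Mac II, 12.2 and 40.2 in Mac IV and 0.502 and 0.434 in Mac V, and it was called higher in Mac III than in Mac II (adjusted p 0.0267), Mac IV (0.00254) and Mac V (0.000269).

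Between Mac II and Mac III, whose Spp1 levels overlapped, 2 of the 20 genes of that list were called by edgeR and 7 by DESeq2, and 12 had an unadjusted p under 0.05. The list's median log2 difference for Mac II minus Mac III was -0.87 against -0.08 over all genes, with 3 of the 20 above 0. Apoe, the gene of a lipid carrier, was higher in Mac II (6530 and 6543 CPM against 152.6 and 57.4, adjusted p 0.00418) and Atp6v0d2 in Mac III. For Mac II against Mac IV 2 were called higher in Mac II and 4 in Mac IV, and for Mac III against Mac IV 6 and 3. Cd63, the gene of a lysosomal membrane protein, was at 719 and 892 CPM in Mac IV, 472 and 549 in Mac III, 178.2 and 249.9 in Mac II and 6.24 and 3.22 in Mac V. Of the MiT family genes Mitf, Tfeb, Tfe3 and Tfec, edgeR called 0 of 4 between Mac II and Mac III, where Gpnmb differed most, against 1 at an unadjusted p under 0.05 and 1 with DESeq2. Their median log2 differences ran from 0.16 to 1.08 over the 6 pairs. For Mac II minus Mac III all 4 were above 0, with a median of 0.25, whereas Gpnmb was higher in Mac III. Tfec was called higher in Mac II, Mac III and Mac IV (191.2 and 170.6, 178.6 and 164.05, and 84.1 and 45.4 CPM) than in Mac V (17.95 and 19.8). Tfeb was lowest in Mac IV (29.9 and 23.1 CPM). It was called higher in Mac II (108.03 and 145.2, adjusted p 0.0213) and in Mac V (67.4 and 89.9, 0.042) than in Mac IV.

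Some of the listed receptors for the secreted products were present in the same classes, and others were nearly absent. Itgb3, an integrin chain of the list, had means of 0.0303 CPM in Mac II and 0.134 in Mac III. Its means were 6.03 CPM in Mac IV and 9.95 in Mac V. Cd44, a receptor for osteopontin, stood at 1710 and 1569 CPM in Mac II, 2272 and 2006 in Mac III, 736 and 351.03 in Mac IV and 1415 and 1452 in Mac V, and Mac IV was called lower than Mac II (adjusted p 0.0349) and Mac III (0.0122). Itga4, an integrin chain that binds both osteopontin and fibronectin, was highest in Mac V at 1266 and 1153 CPM, against 191.8 and 288.1 in Mac II, 114.1 and 95.95 in Mac IV and 34.1 and 37.95 in Mac III. Mac V was called higher in all 3 pairs, and Mac III was called lower than Mac II (0.00743) and Mac IV (0.0181). Over single Mac V cells Itga4 ran against Fn1, with rho of -0.45 and -0.52, and Cd44 had -0.19 and -0.23 with Fn1. Of 11 receptor genes tested, the calls higher in the first and second class of the 6 pairs numbered 2 and 1 for Mac II and Mac III, 1 and 1 for Mac II and Mac IV, 0 and 1 for Mac II and Mac V, 1 and 3 for Mac III and Mac IV, 1 and 2 for Mac III and Mac V and 1 and 3 for Mac IV and Mac V. The list's median log2 difference was 0.55 for the first of these pairs, 0.66 for the second and -0.60, -1.49, -1.14 and -0.74 for the rest. Over all genes the median ran from -0.14 to 0.11. Sdc4, the gene of a syndecan that binds fibronectin, was at 626 and 926 CPM in Mac IV and at most 12.9 in any other of these classes.

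Among 17 tested genes of TGF-beta ligands, receptors and signalling, from 1 to 5 were called in each pair, with 5 between Mac III and Mac V (2 higher in Mac III, 3 in Mac V), and their median log2 differences ran from -0.67 to 1.11. Tgfbr1, which encodes the type I receptor, was at 456 and 480 CPM in Mac II, 136.5 and 117.5 in Mac III, 57.7 and 83.8 in Mac IV and 164.4 and 207.7 in Mac V. Mac II exceeded Mac III (adjusted p 0.0295) and Mac IV (0.00466), and Mac V exceeded Mac IV (0.0282). The receptor gene Tgfbr2 had another order. It was highest in Mac III (256.7 and 235.2 CPM) and called higher there than in Mac V (69.6 and 40.3, adjusted p 0.0184). Thbs1 was at 882 and 1506 CPM in Mac V and at 0.0191 and 2.39 in Mac III. The ligand gene Tgfb1 ran from 20.5 to 117.9 CPM over the 4 classes.

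Of 20 tested growth factors and repair mediators, 5 were called higher in Mac IV than in Mac V and 0 lower, and 4 higher in Mac IV than in Mac III and 0 lower, with 2 and 0 against Mac II. Igf1 was at 759 and 859 CPM in Mac IV and at 0 and 4.93 in Mac V. F13a1 was at 383.9 and 404 CPM in Mac IV and 215.8 and 260.4 in Mac V, against 0 and 2.11 in Mac II and 0.0287 and 0.0425 in Mac III. For Mac II against Mac V 2 were higher in Mac II and 1 in Mac V, for Mac III against Mac V 2 and 2, and for Mac II against Mac III edgeR called 0 of 20, with 5 at an unadjusted p under 0.05 and 7 called by DESeq2. The list's median log2 difference was 1.85 for Mac IV minus Mac V, -1.44 for Mac III minus Mac IV and -1.25 for Mac II minus Mac IV.

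Of 14 other matrix genes tested, the calls higher in the first and second class numbered 1 and 1 for Mac II and Mac IV, 1 and 2 for Mac III and Mac IV, 1 and 1 for Mac III and Mac V and 1 and 0 for Mac IV and Mac V. Vim, counted among the 14, encodes the filament protein vimentin, which is not a matrix protein. It was the gene called higher in the first class of the first 3 of these pairs. The list's median log2 difference was 3.19 for Mac IV minus Mac V, -3.63 for Mac III minus Mac IV and -2.03 for Mac II minus Mac IV. Of its genes, Postn, Tnc, Fbn1, Lamb1 and Eln had means under 10 CPM in all 4 classes. With edgeR 0 were called between Mac II and Mac III or between Mac II and Mac V, where 3 and 3 had an unadjusted p under 0.05 and DESeq2 called 2 and 3. Sparc, a collagen-binding matrix protein, was at 456 and 164.9 CPM in Mac IV against 8.18 and 3.57 in Mac III (adjusted p 0.01) and 13.3 and 3.56 in Mac V (0.014). Mac IV also held the highest sums of endothelial markers (535 and 118.3 CPM, against at most 47.9 in the other classes), and their part in its Sparc level was not tested.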

How the data were processed

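Read counts per gene and cell were used as the authors deposited them, whole numbers for 18072 genes in 1183 cells of 2 animals. The submitters' processing notes name STAR 2.5.2b, HTSeq 0.10 and the build GRCh38, a human build although the symbols are those of mouse genes, so the build used is not clear and genes were matched to GRCm38 by symbol. No molecular identifiers are named, so copies of a molecule were counted separately, and counting intervals are therefore too narrow.

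The members and all gene lists were chosen with earlier results of these data known. Counts were summed per labelled subtype and animal. The animal was the replicate, and p-values measure the spread between 2 mice of different sex. Mac II to Mac V (8 libraries) were fitted with edgeR 4.0.16 in R 4.3.3 (TMM, filterByExpr, quasi-likelihood F test), and p-values were adjusted by Benjamini and Hochberg over all tested genes of a pair, with 0.05 as the threshold for a call. The animal pairs the libraries by design, since each mouse gave all classes. Deviations of libraries of the same animal were nearly uncorrelated, at 0.0131 to 0.0857 over the 6 pairs. The main fit held the subtype alone, without the animal. Alternatives were DESeq2 1.42.0, other size factors, no filter, all 15 subtypes with at least 5 cells per animal, a replicate block, the run shared by both animals (885 cells), equal weights per cell, CD45 plates only and each library left out.

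CPM were computed without TMM factors. Intervals are exact Clopper-Pearson for shares and exact Poisson for levels. Named genes were the 4 members in every subtype, the 3 genes of highest r per member with at least 50 CPM in a subtype, and among called list genes up to 3 per list and pair with the largest change, the same direction in both animals and at least 50 CPM in the higher class. List genes outside that rule (Tgfb1, Itgb3, and levels beside a named gene's calls) were chosen after their values were seen. Every row of the count table carries a gene symbol.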

Additional observations from a re-analysis of the deposited data

Results flagged for a closer look

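Tgfbi differed in direction between the animals in 1 pair of classes. Its log2 ratio of Mac II over Mac III was -0.03 in the female and 0.06 in the male. Both ratios are close to 0, the counting intervals behind them are too narrow for reads without molecular identifiers, and the difference between the animals was not tested.

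The single Mac I cell, from the male, entered no comparison. It had 714.3 CPM of Fn1 (1743 reads) and 338.5 CPM of Tgfbi (826 reads), with no read of Spp1 or Gpnmb, where 3 reads would have been 1.23 CPM.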

How the results depend on the processing

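Of 14400 tested genes, 1.13% were called between Mac II and Mac III, 3.94% between Mac II and Mac IV, 3.97% between Mac II and Mac V, 5.24% between Mac III and Mac IV, 7.54% between Mac III and Mac V and 7.07% between Mac IV and Mac V. In that order, all 15 subtypes in the fit gave 0.0256%, 0.0897%, 0.115%, 0.263%, 0.442% and 0.167%, and DESeq2, of the genes it gave an adjusted p, 9.56%, 20.4%, 20.3%, 17.5%, 21.8% and 24.3%. Leaving out a library gave 0.209% to 0.735%, 0.897% to 2.05%, 2.41% to 2.96%, 1.47% to 2.89%, 2.35% to 5.63% and 2.33% to 4.51%, with the lone library of a class assumed to vary like the others. In the other settings the number of calls stayed within 1.5 times. With the animal as a replicate block, paired by mouse, the shares were 1.31%, 3.8%, 3.69%, 5.54%, 7.27% and 6.26%, and 15 of the 24 tests of the 4 genes passed: the 12 calls, and 3 others (Gpnmb in Mac II against Mac IV and Mac V, Tgfbi in Mac III against Mac IV).

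For the 4 genes' fold changes, 9 alternatives changed the sign, each of a difference that had not been called. Spp1 between Mac II and Mac III ran from -0.33 to 0.05 (log2) as each library was left out, Fn1 between Mac III and Mac IV from -0.05 to 1.33, and Tgfbi between Mac II and Mac III from -0.21 to 0.22 and between Mac IV and Mac V from -0.96 to 0.14. Tgfbi between Mac II and Mac III was -0.01 with cells weighted equally and -0.01 with CD45 plates only, and between Mac IV and Mac V 0.00 with the shared run. The cause was not tested.

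Single cells limited the levels where few carried a gene: without the top cell of each animal, Gpnmb in Mac IV stood at 31.4 and 10.5 CPM. Of the 3 genes most like each member, Spearman's rho kept 0 for Spp1 and Gpnmb and 2 for Fn1 and Tgfbi.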
